A study of Mus musculus with 9 samples.

Results

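The genes described here are 10 components of the transforming growth factor beta (TGF-beta) pathway. They are the ligands Tgfb1, Tgfb2 and Tgfb3, the receptors Tgfbr1 and Tgfbr2, and the signal transducers Smad2 and Smad3. The others are the pathway inhibitors Smad7 and Skil, and Tmeff1, which tempers bone morphogenetic protein signals. All 10 genes were found by gene symbol among the 37980 rows of the deposited expression table, where each has 1 row. The RNA came from stem cells of the hair follicle, taken from C57BL/6J males at 3, 19 or 24 months of age. Each age has 3 libraries, which makes 9. High CD49f and the presence of CD34, surface proteins that together mark the bulge, served to sort these cells out of skin of the back and belly. The bulge is the stem cell niche of the follicle. The labels name no genetic change and no treatment at any age. No label ties the libraries of an age to separate mice, and the spread that p-values rest on may therefore be technical. The 3-month libraries carry running numbers apart from those of the older libraries, and a preparation difference between them cannot be told apart from age.

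TGF-beta ligands are secreted in a latent form and act once they are released from it. The active ligand binds the type II receptor Tgfbr2, which phosphorylates the type I receptor Tgfbr1, and that kinase phosphorylates Smad2 and Smad3. These join Smad4 and regulate genes in the nucleus. Smad7 blocks the receptors and Skil (SnoN) represses the Smad complex in the nucleus. In the hair follicle the pathway is known for its part in the onset of growth, where it counters bone morphogenetic protein (BMP) signals on bulge stem cells partly through Tmeff1, and in follicle regression. RNA levels were measured here, not ligand release or Smad phosphorylation.

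The table gives FPKM, a fragment count scaled to library size and transcript length, so levels of different genes can be set side by side. The libraries' absolute depth is unknown. Steps between the lowest values, where single fragments can be seen, put the relative depth of the libraries between 0.854 and 1.25 of their geometric mean, a ratio of 1.47 between the deepest and the shallowest. The sorted population carried its markers, with 8 of 9 bulge genes above 1 FPKM in at least 3 libraries. Of these 8, 3 were called with age by limma: Lgr5 was lower at 24 against 3 months (log2 -1.01, adjusted p = 0.0058), and Sox9 and Nfatc1 were higher at 19 against 3 months (log2 0.66 and 0.78, adjusted p = 0.0348 and 0.0264). Of all genes tested, 1.56% were called at 19 against 3 months and 3.84% at 24 against 3. The ninth, Krt15, was listed at 0 in all 9 libraries, and since some zeros in this table fall on genes the tissue uses heavily, that row is not read as absence. Changes were tested with limma on log2(FPKM + 1) over 11509 protein-coding genes that reached 1 FPKM in 3 or more libraries. A gene was called at a Benjamini-Hochberg adjusted p under 0.05, and log2 changes on this scale understate those of low genes.

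Promoter sequence (RefSeq, build GRCm38.p6) was matched by symbol, with the entries of a single chromosome left out, and 6 of the 10 genes were kept. A gene outside these 6 may therefore still have an entry. The sequence of the ligand genes Tgfb1 and Tgfb2 is shown because these ligands differed widely in level. Tgfb3, the ligand with the highest level, was not among the 6 genes kept. No link between sequence and level was tested. The expression table was made on another build, so these positions are not those of the table. Each sequence holds the 250 bases before the annotated start, read 5′ to 3′ on the gene's strand. Capitals mark the GC box GGGCGG, the TATA box TATAAA and the Smad-binding CAGA box CAGACA, on either strand. Tgfb1 lies on the plus strand at chr7:25686752-25687001 and Tgfb2 on the minus strand at chr1:186705990-186706239.
Tgfb1: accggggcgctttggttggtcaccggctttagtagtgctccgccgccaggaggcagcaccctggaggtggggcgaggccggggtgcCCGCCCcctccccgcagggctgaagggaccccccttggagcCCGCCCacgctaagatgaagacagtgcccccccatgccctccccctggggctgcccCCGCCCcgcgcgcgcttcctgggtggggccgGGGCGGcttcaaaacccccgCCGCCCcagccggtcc
Tgfb2: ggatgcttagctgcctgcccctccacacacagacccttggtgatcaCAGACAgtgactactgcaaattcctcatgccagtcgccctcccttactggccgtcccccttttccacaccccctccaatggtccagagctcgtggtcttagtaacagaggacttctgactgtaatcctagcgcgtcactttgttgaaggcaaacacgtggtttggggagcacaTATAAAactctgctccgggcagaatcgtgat

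The Tgfb1 window was 75.2% G and C and held 5 matches to the GC box and none to the TATA box. The Tgfb2 window was 53.6% G and C and held 1 TATA box, which begins 31 bases before the start, 1 CAGA box and no GC box. Over 32851 promoter windows of the same length, 32.7% held a GC box, 12.4% a TATA box and 17.1% a CAGA box. Matches to the cyclic AMP response element TGACGTCA, the AP-1 site TGACTCA and the Smad palindrome GTCTAGAC were also looked for on both strands, and the windows of both ligand genes held none. Across all windows 1.55%, 4.46% and 0.167% held them. These matches describe the letters only.

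The 10 genes covered a wide range of levels. Averaged over the 9 libraries, Tgfb3 stood highest at 28.8 FPKM ± 9.94 (SD, n = 9), and its lowest library was above the highest library of every other gene in the group. Smad2 followed at 13.0 ± 1.84 FPKM, then Skil at 8.74 ± 2.36, Tgfb2 at 7.84 ± 2.37, Tgfbr1 at 6.27 ± 1.2, Tgfbr2 at 4.30 ± 0.790, Smad3 at 4.18 ± 0.957 and Smad7 at 2.57 ± 0.654 FPKM. Neighbours in this order from Smad2 down to Smad7 overlapped in their ranges. Skil was above Tgfb2 in 5 of 9 libraries and Tgfbr2 above Smad3 in 4 of 9, so these neighbours had no fixed order. Tmeff1, at 0.720 ± 0.227 FPKM, and Tgfb1, at 0.328 ± 0.238 FPKM, were at the bottom and below every library of Smad7.

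**Figure D1:**
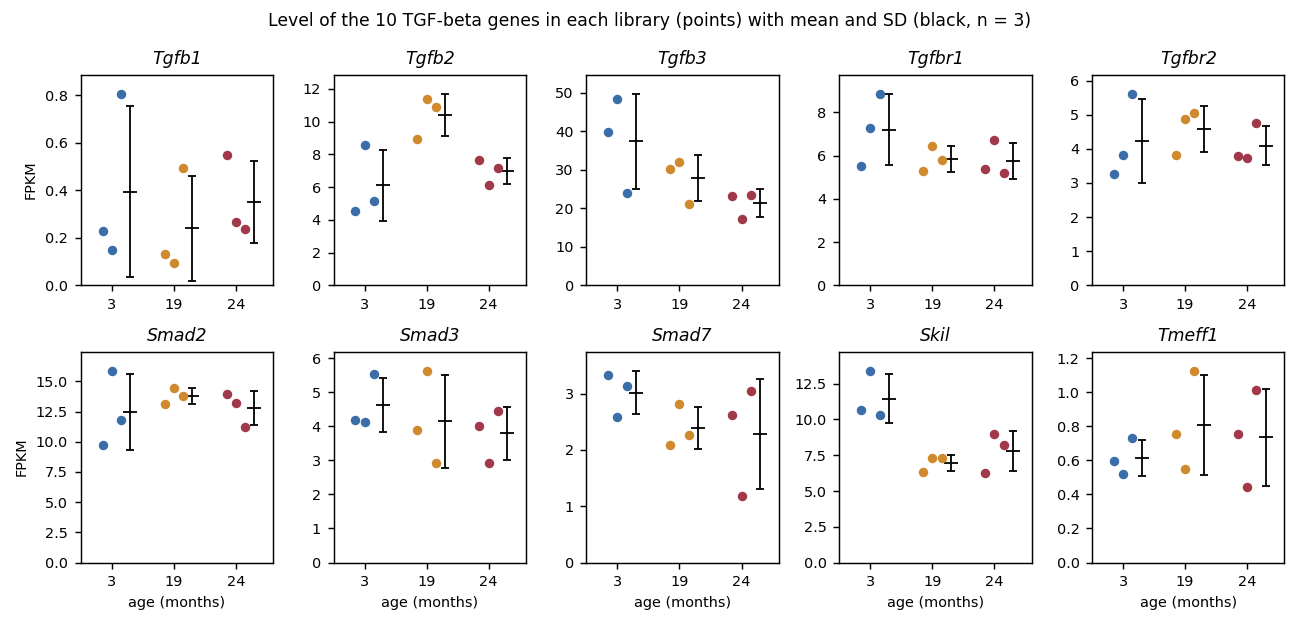
FPKM of each of the 10 genes (vertical axes, each from 0) at 3, 19 and 24 months. Points are libraries in the order of their label numbers, and the black mark and bar are the mean and SD of 3 libraries. Tgfb3 reaches 48.4 FPKM and Tgfb1 stays below 1 FPKM, and the 3-month libraries of Skil all lie above the older ones.

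In limma's test, 0 of the 8 tested members were called at any comparison. The other 2 members, Tgfb1 and Tmeff1, did not reach 1 FPKM in at least 3 libraries and were not tested. Of all 11509 genes tested, 1.56% were called at 19 against 3 months, 3.84% at 24 against 3, 0.93% at 24 against 19 and 4.54% in an F test for a change at any age, so a count of 0 of 8 does not set these genes apart. By direction the shares of all genes were 0.6% higher and 0.964% lower at 19 against 3 months, 1.5% higher and 2.34% lower at 24 against 3, and 0.712% higher and 0.217% lower at 24 against 19. At an unadjusted p under 0.05 the members held 2, 2 and 1 at the 3 comparisons and 3 in the F test, namely Skil, Tgfb2 and Tgfb3, where 15.7%, 21.6%, 12.8% and 21.4% of all genes passed. The median log2 change of the 8 members was -0.20 at 19 against 3 months, -0.25 at 24 against 3 and -0.09 at 24 against 19, beside 0.01, 0.00 and -0.02 over all genes tested. The comparisons with 3 months share those libraries. Over all genes, 69 were called higher and 111 lower at 19 months and 173 higher and 269 lower at 24 months against 3 months. With every library shifted to a common median these became 89 higher and 91 lower, and 216 higher and 190 lower. With all table rows tested in place of protein-coding genes, 40, 29 and 7 rows were called at the 3 comparisons and 32 in the F test, and 0 members.

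**Figure D2:**
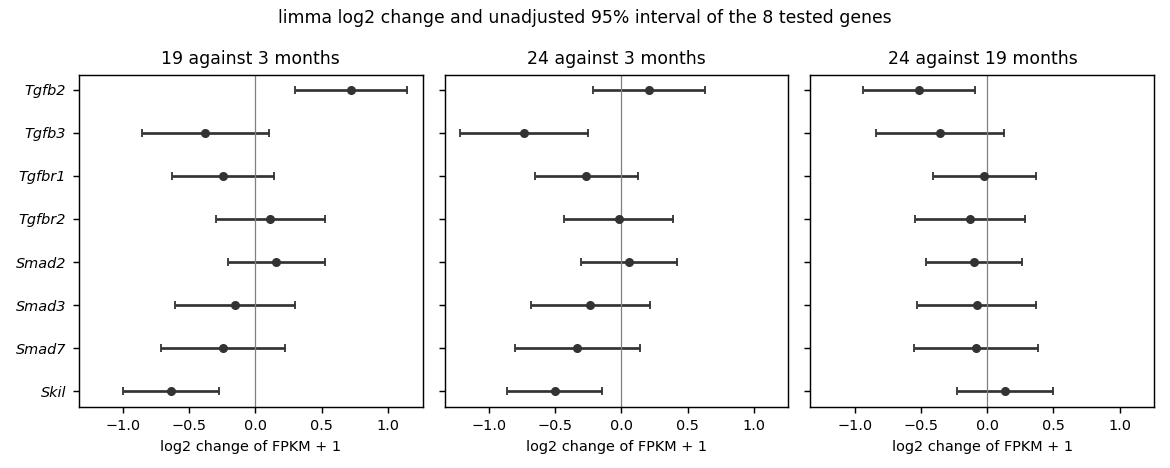
log2 change of FPKM + 1 from limma (points) with the 95% interval before adjustment (bars) for the 8 tested genes in each comparison. The intervals of Tgfb2 and Skil lie to 1 side of 0 at 19 against 3 months and those of Tgfb3 and Skil at 24 against 3 months and that of Tgfb2 at 24 against 19 months, and none of these passes the adjusted threshold.

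Among the ligands, Tgfb3 (ENSMUSG00000021253) made up most of the TGF-beta ligand RNA of these samples. It stood at 39.7, 48.4 and 24.0 FPKM in the 3-month libraries, at 30.2, 32.1 and 21.1 FPKM at 19 months and at 23.3, 17.2 and 23.5 FPKM at 24 months. All 24-month libraries were below the lowest 3-month library, by a small margin to the third of these, while the 19-month libraries overlapped with both. The log2 change at 24 against 3 months was -0.74 ± 0.23 (SE, 95% interval -1.22 to -0.26, limma adjusted p = 0.0801), and at 19 against 3 months it was -0.38 ± 0.23 (adjusted p = 0.438). Without 3 months replicate 3, the library with the lowest value of its age, the change at 24 against 3 months was -1.02 and was called (limma adjusted p = 0.0215). Without any other single library it was not called, with adjusted p up to 0.257.

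Tgfb2 (ENSMUSG00000039239), the ligand that dermal papilla cells are known to send to the bulge, was also present in RNA of the sorted samples. It stood at 4.57, 8.57 and 5.16 FPKM at 3 months, at 8.96, 11.4 and 10.9 FPKM at 19 months and at 7.66, 6.15 and 7.15 FPKM at 24 months. Each 19-month library was above every library of the other ages. The log2 change was 0.72 ± 0.20 at 19 against 3 months (95% interval 0.30 to 1.15, limma adjusted p = 0.0868) and -0.51 ± 0.20 at 24 against 19 months (95% interval -0.94 to -0.09, adjusted p = 0.277). At 24 against 3 months it was 0.21 ± 0.20 (adjusted p = 0.586). The 3-month library with the highest value, replicate 2, decided the call, since without it the change at 19 against 3 months was 0.96 (limma adjusted p = 0.0313).

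Tgfb1 (ENSMUSG00000002603), the form of the ligand that blood and immune cells commonly make, was the lowest of the 10 genes. Its libraries lay at 0.227, 0.149 and 0.806 FPKM at 3 months, at 0.133, 0.0927 and 0.494 FPKM at 19 months and at 0.550, 0.267 and 0.235 FPKM at 24 months. The ages overlapped, and the highest and lowest libraries differed 8.69-fold, the widest spread of the 10 genes. At this level no difference between ages was detectable.

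The ratio of the 2 ligands within each library is given as a description, since it was chosen after their values had been seen. Exact permutation tests gave p = 0.1 at 19 and at 24 against 3 months and 0.7 at 24 against 19 months. With 3 libraries against 3 such a test cannot go below 0.1, and no conclusion is drawn from it. The ratio does not depend on the scaling of a library. The ratio of Tgfb2 to Tgfb3 was 0.115, 0.177 and 0.215 at 3 months, 0.296, 0.355 and 0.518 at 19 months and 0.329, 0.358 and 0.304 at 24 months. Every library of both older ages was above every 3-month library, and the older ages overlapped. The share of other gene pairs that do so was not computed. Of single genes tested, 22.5% did not overlap at 19 against 3 months and 22.6% at 24 against 3. The geometric mean ratio was 2.32-fold higher at 19 months and 2.01-fold higher at 24 months than at 3 months. Tgfb3 supplied 80.1 to 89.2% of the summed FPKM of the 3 ligands at 3 months, 64.9 to 76.9% at 19 months and 72.8 to 76.1% at 24 months. It was the most abundant ligand RNA in each of the 9 libraries.

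**Figure D3:**
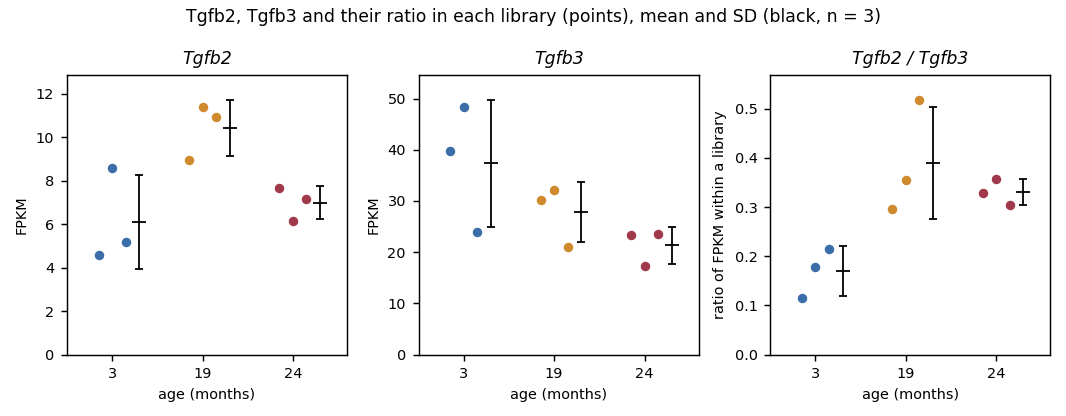
FPKM of Tgfb2 and Tgfb3 and the ratio of Tgfb2 to Tgfb3 within each library (vertical axes, from 0) by age. Points are libraries and black marks the mean and SD of 3. The ratio lies between 0.115 and 0.215 at 3 months and between 0.296 and 0.518 at the older ages.

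Both receptor genes were expressed at every age, and their values overlapped between all ages. Tgfbr1 (ENSMUSG00000007613), the signalling kinase of the pair, stood at 5.52, 7.26 and 8.83 FPKM at 3 months, at 5.29, 6.46 and 5.78 FPKM at 19 months and at 5.39, 6.72 and 5.18 FPKM at 24 months. The 2 highest libraries were of 3 months, and the third 3-month library was among the older ones. Its log2 change was -0.24 ± 0.18 at 19 against 3 months and -0.27 ± 0.18 at 24 against 3 months (limma adjusted p = 0.548 and 0.424), with 95% intervals of -0.63 to 0.14 and -0.65 to 0.12. Tgfbr2 (ENSMUSG00000032440), which binds the ligand first, stood at 3.26, 3.82 and 5.62 FPKM at 3 months, at 3.81, 4.88 and 5.05 FPKM at 19 months and at 3.79, 3.73 and 4.76 FPKM at 24 months. The lowest and the highest of its 9 values were both of 3 months. Its log2 change was 0.11 ± 0.19 at 19 and -0.02 ± 0.19 at 24 months against 3 months (adjusted p = 0.823 and 0.965), and the intervals of -0.30 to 0.53 and -0.43 to 0.39 leave room for changes of either sign. The small 24-month difference turned to 0.04 with the median-shifted values.

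The receptor-activated Smads differed in level. Smad2 (ENSMUSG00000024563) exceeded Smad3 (ENSMUSG00000032402) in all 9 libraries, since the lowest Smad2 value, 9.70 FPKM, was above the highest Smad3 value, 5.62 FPKM. Smad2 stood at 9.70, 15.9 and 11.8 FPKM at 3 months, at 13.1, 14.4 and 13.8 FPKM at 19 months and at 13.9, 13.2 and 11.3 FPKM at 24 months. The 3-month libraries spanned all the others, and Smad2 had the smallest ratio between its highest and lowest library of the 10 genes, 1.64. Its log2 change was 0.16 ± 0.17 at 19 and 0.06 ± 0.17 at 24 months against 3 months (limma adjusted p = 0.698 and 0.883). Smad3 stood at 4.19, 4.13 and 5.54 FPKM at 3 months, at 3.89, 5.62 and 2.91 FPKM at 19 months and at 4.01, 2.92 and 4.45 FPKM at 24 months. Libraries of 1 age differed as much as the ages did, and the log2 change was -0.15 ± 0.21 at 19 and -0.23 ± 0.21 at 24 months against 3 months (adjusted p = 0.771 and 0.558).

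Of the inhibitors, Skil (ENSMUSG00000027660) had the smallest F test p of the 8 tested members. Skil represses Smad target genes and is itself induced by the pathway as feedback. It stood at 10.7, 13.4 and 10.3 FPKM at 3 months, at 6.35, 7.28 and 7.30 FPKM at 19 months and at 6.23, 8.95 and 8.23 FPKM at 24 months. Every 3-month library was above every older library, and the 2 older ages overlapped. The mean at 19 months was 0.609 of that at 3 months, and at 24 months 0.681 of it. On the log2 scale the differences were -0.64 ± 0.17 (95% interval -1.0 to -0.28) and -0.51 ± 0.17 (95% interval -0.87 to -0.14), with limma adjusted p = 0.0766 and 0.105, and 0.0748 in the F test. None of the alternative fits or of the fits without 1 library called it at any comparison, with adjusted p between 0.0509 and 0.198 at 19 against 3 months. Of 6 markers of sebaceous gland cells, 5 were called lower against 3 months at 19 and at 24 months. The other, Plin2, was not called there, with log2 changes of 0.49 and -0.23 (limma adjusted p = 0.14 and 0.42). The part of sebaceous gland cells in the values of Skil, Tgfb3 and the genes below was not tested.

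Smad7 (ENSMUSG00000025880), the feedback inhibitor at the receptors, stood at 3.33, 2.59 and 3.14 FPKM at 3 months, at 2.09, 2.81 and 2.27 FPKM at 19 months and at 2.63, 1.19 and 3.05 FPKM at 24 months. The 2 highest values were of 3 months, but the ages overlapped. The log2 change was -0.25 ± 0.22 at 19 and -0.33 ± 0.22 at 24 months against 3 months (limma adjusted p = 0.63 and 0.407). Tmeff1 (ENSMUSG00000028347), the membrane protein that tempers BMP signals, stood at 0.596, 0.519 and 0.729 FPKM at 3 months, at 0.753, 0.548 and 1.12 FPKM at 19 months and at 0.752, 0.443 and 1.01 FPKM at 24 months. It reached 1 FPKM in 2 of 9 libraries, the ages overlapped, and no difference was detectable at this level.

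Read as ranges, the 8 tested members gave 1 gene above and 1 below without overlap at 19 against 3 months, Tgfb2 and Skil, where 22.5% of all genes tested did not overlap, 11% higher and 11.6% lower. At 24 against 3 months 2 lay below and 0 above, Tgfb3 and Skil (22.6% of all genes, 10.6% higher and 12% lower), and at 24 against 19 months Tgfb2 lay below (18.4% of all genes, 7.94% higher and 10.4% lower). These shares are near the background.

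The genes whose log2 profile over the 9 libraries was most like that of Skil were Ttll5 (Pearson r = 0.962), Flrt3 (r = 0.956) and Paqr3 (r = 0.951). These were the 3 highest values among all genes tested, they are given as a description, and the points share their libraries and ages. Among the 28 pairs of tested members, the highest values were 0.746 for Tgfb2 with Smad2 and 0.723 for Smad3 with Smad7, and the lowest was -0.48 for Tgfb2 with Skil.

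The rest of the pathway was followed in 77 further genes in 6 lists, of which 63 were tested. Limma called 1 at 19 against 3 months, 4 at 24 against 3, 1 at 24 against 19 and 6 in the F test, next to the shares of all genes given above. In the list of ligand activation, which holds genes that tether latent ligand as well as genes that release it, 1 of 10 tested was called lower. None of them was called higher at 24 against 3 months, the comparison of that call. Itgb6, the integrin beta chain that with Itgav activates latent TGF-beta on epithelia, stood at 26.0, 28.4 and 27.7 FPKM at 3 months, at 15.6, 19.9 and 22.4 FPKM at 19 months and at 16.5, 11.3 and 13.5 FPKM at 24 months. All older libraries were below all 3-month libraries. Itgb6 fell to 0.502 of the 3-month mean at 24 months (log2 -0.96 ± 0.17, limma adjusted p = 0.00628), and its log2 change at 19 months was -0.50 ± 0.17 (adjusted p = 0.15). The call at 24 months was kept in each of the 9 fits without 1 library (adjusted p up to 0.0354) and was lost when all table rows were tested (adjusted p = 0.0674).

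Of 14 tested inhibitors in the lists, 1 was called lower and 0 higher at 24 against 3 months. Fkbp1a, the immunophilin FKBP12 that keeps Tgfbr1 inactive without ligand, stood at 80.3, 102 and 78.3 FPKM at 3 months, at 77.6, 87.9 and 81.8 FPKM at 19 months and at 62.7, 55.8 and 42.7 FPKM at 24 months. The 24-month libraries were all below those of the other ages. Fkbp1a fell by 0.69 ± 0.15 on the log2 scale at 24 against 3 months (limma adjusted p = 0.0234), and its change at 24 against 19 months was -0.62 ± 0.15 (adjusted p = 0.0797). The call at 24 against 3 months was lost without 3 months replicate 2 (adjusted p = 0.103) or 24 months replicate 4 (adjusted p = 0.117). It was also lost when all table rows were tested (adjusted p = 0.104), with no filter on low values (0.0797) and with the replicate number as a term of the model, the replicate block (0.0686).

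Of the other lists, 0 of 5 tested activins and relatives, 0 of 5 other receptors and 0 of 8 transducers and helpers were called by limma at any comparison or in the F test. At an unadjusted p under 0.05 they held 0, 2 and 0 at 19 against 3 months, 1, 0 and 2 at 24 against 3 months, 1, 2 and 1 at 24 against 19 months, and 1, 2 and 0 in the F test.

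Of 21 tested target genes, 1 was called lower at 19 against 3 months, 2 higher at 24 against 3 and 1 higher at 24 against 19, and 4 were called in the F test. The list median was 0.10, 0.25 and 0.00 at the 3 comparisons. Ctgf, connective tissue growth factor, which is induced by TGF-beta and also by YAP, stood at 157, 152 and 127 FPKM at 3 months, at 76.2, 63.5 and 62.7 FPKM at 19 months and at 130, 172 and 138 FPKM at 24 months. The 19-month libraries were below all others, and the youngest and oldest ages overlapped. Ctgf fell by 1.1 ± 0.14 on the log2 scale at 19 against 3 months (limma adjusted p = 0.00139) and was higher by 1.11 ± 0.14 at 24 against 19 months (adjusted p = 0.00253). At 24 against 3 months its change was 0.01 ± 0.14 (adjusted p = 0.977), with a 95% interval of -0.30 to 0.32. Both calls were kept in each of the 9 fits without 1 library, with adjusted p up to 0.0122 and 0.0191. When all table rows were tested, the 24 against 19 months call was lost (adjusted p = 0.0923). It was also lost with no filter on low values (0.0717) and over all rows but those listed at 0 at an age (0.137). In that last fit the F test call of Ctgf was lost too (limma adjusted p = 0.0643).

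**Figure D4:**
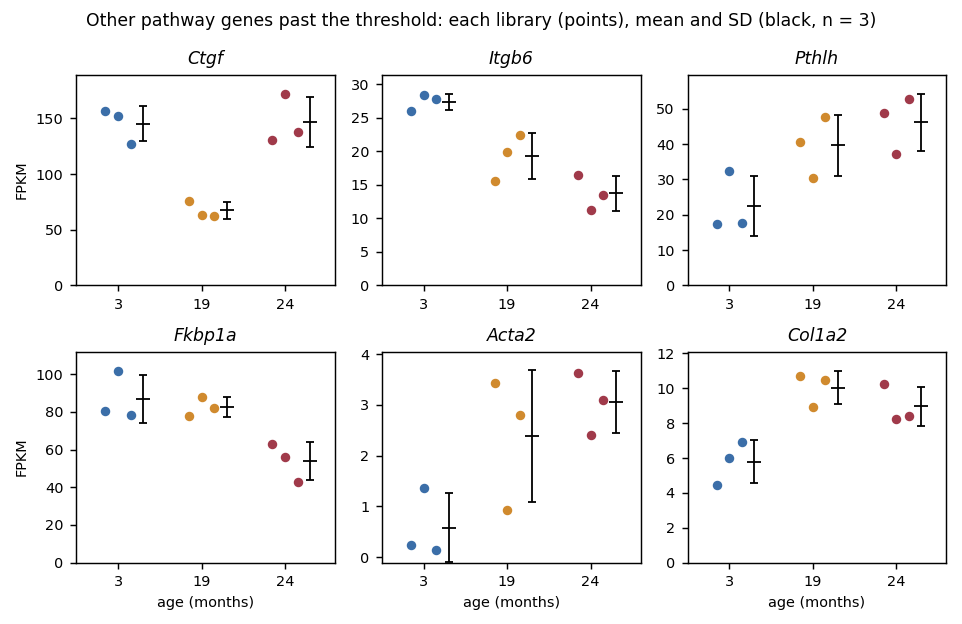
FPKM (vertical axes) of the 6 further pathway genes that passed limma's threshold in a pairwise comparison or in the F test, by age, ordered by their F test p. Points are libraries and black marks the mean and SD of 3. Ctgf lies between 62.7 and 76.2 FPKM at 19 months and at 127 FPKM or above at the other ages, while Itgb6 lies at 26.0 FPKM or above at 3 months and below that at the older ages.

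Pthlh, parathyroid hormone-like hormone, a secreted factor that TGF-beta can induce, stood at 17.4, 32.3 and 17.7 FPKM at 3 months, at 40.7, 30.4 and 47.8 FPKM at 19 months and at 48.8, 37.1 and 52.7 FPKM at 24 months. It rose 2.06-fold in mean FPKM at 24 against 3 months (log2 1.05 ± 0.22, limma adjusted p = 0.0175). Leaving out any of replicates 1 and 3 of the 3-month age or replicates 2 and 4 of the 24-month age ended the call (adjusted p = 0.059, 0.0672, 0.0555 and 0.0877), as did testing all table rows (adjusted p = 0.118), using no filter on low values (0.103) and the replicate block (0.133). Acta2, smooth muscle actin, stood at 0.240, 1.37 and 0.144 FPKM at 3 months, at 3.42, 0.923 and 2.79 FPKM at 19 months and at 3.63, 2.42 and 3.10 FPKM at 24 months. It rose at 24 against 3 months (log2 1.42 ± 0.31, limma adjusted p = 0.0204), a call lost without the same 4 libraries (adjusted p = 0.063, 0.0733, 0.0647 and 0.0788). The call was also lost when all table rows were tested (adjusted p = 0.123), with no filter on low values (0.111) and with the replicate block (0.103). The size of this change depends on the pseudocount, since it was 2.65 with 0.1 FPKM in place of 1 FPKM, and the ratio of mean FPKM was 5.22.

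Col1a2, a chain of type I collagen, stood at 4.46, 6.01 and 6.92 FPKM at 3 months, at 10.7, 8.94 and 10.5 FPKM at 19 months and at 10.3, 8.24 and 8.43 FPKM at 24 months. All older libraries were above all 3-month libraries. It was called in the F test only (limma adjusted p = 0.0495), a call lost in 8 of the 9 fits without 1 library, at adjusted p up to 0.17, and at 0.147 when all table rows were tested. The pairwise log2 changes against 3 months were 0.71 ± 0.17 and 0.56 ± 0.17 (adjusted p = 0.0528 and 0.0807). That at 19 months was called in 3 of 10 alternative fits and in 2 of the 9 fits without 1 library. These were median-shifted values (limma adjusted p = 0.0409), quantile-normalised values (0.0477) and a robust prior (0.0464). The other 2 were without 3 months replicate 3 (0.0400) and without 24 months replicate 2 (0.0479).

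Besides Col1a2, 4 pathway genes had an adjusted p between 0.05 and 0.1 at 24 against 3 months, and they were named after their values were seen. These were Mmp2, a matrix metalloproteinase (log2 0.92 ± 0.25, limma adjusted p = 0.05002), Ltbp1, which tethers latent ligand to matrix (-0.52 ± 0.14, adjusted p = 0.056), Fst, follistatin, an antagonist of activin (0.59 ± 0.17, adjusted p = 0.0636), and Junb, a subunit of AP-1 (1.26 ± 0.37, adjusted p = 0.0712). Without 19 months replicate 1 the changes of Mmp2 and Junb were called (adjusted p = 0.0146 and 0.00718), without 19 months replicate 2 that of Mmp2 (0.0359) and without 19 months replicate 3 that of Fst (0.0478). With only the libraries of 3 and 24 months fitted, Mmp2 and Junb were called (adjusted p = 0.0128 and 0.00523). Mmp2 was also called with a 5 FPKM filter (0.0432) and median-shifted values (0.0476), Fst with a robust prior (0.0495) and Junb with the replicate block (0.0414).

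Acta2 and Col1a2 also stand in marker lists of other cell types. Fewer cells of a type and less RNA per cell cannot be told apart in sorted bulk samples. The summed level of 8 dermal fibroblast and dermal papilla markers was 7.26 to 9.69 FPKM at 3 months, 11.0 to 13.9 at 19 months and 12 to 18.8 FPKM at 24 months, and 3 of the 8 reached 1 FPKM in at least 3 libraries. Col1a2 itself made up much of that sum. Thy1 averaged 1.05, 1.16 and 2.17 FPKM at 3, 19 and 24 months and Col1a1 1.11, 0.713 and 0.945 FPKM, and neither was called. Dcn reached 3.18 FPKM in 24 months replicate 2 and was otherwise at 1.06 FPKM or below. The other fibroblast markers Col3a1, Lum, Pdgfra and Dpt stayed below 1 FPKM in all 9 libraries. The 5 smooth muscle and pericyte markers summed to 1.67 to 2.69 FPKM at 3 months, 1.97 to 4.77 at 19 months and 4.42 to 5.86 FPKM at 24 months. Of these Acta2 and Tagln reached 1 FPKM in at least 3 libraries and Des was listed at 0 throughout. Acta2 itself made up much of the rise of that sum, with means of 0.584, 2.38 and 3.05 FPKM at 3, 19 and 24 months. Tagln averaged 1.37, 1.37 and 1.91 FPKM and was not called. Myh11 and Rgs5 were at 0.0845 FPKM or below in all 9 libraries. The 6 endothelial markers summed to 12.6 to 15.1, 10.015 to 11.6 and 6.32 to 7.76 FPKM. Both tested ones, Egfl7 and Ramp2, made up most of that sum and were called lower at 24 against 3 months. The others were near the floor, with Cdh5 and Kdr at 0.0912 FPKM or below in all 9 libraries. Pecam1 averaged 0.240, 0.355 and 0.189 FPKM and Vwf 0.767, 0.597 and 0.749 FPKM at 3, 19 and 24 months. The 8 immune cell markers summed to 38.9 to 78.6, 32.2 to 60.6 and 44.8 to 72.9 FPKM, and 1 of 5 tested, Fcer1g, was called lower at 19 against 3 months and higher at 24 against 19 months. The 6 sebaceous gland markers summed to 124 to 162, 109 to 144 and 77.1 to 92.8 FPKM. Of these Scd1, Elovl3, Mc5r, Cidea and Far2 were called lower at both older ages against 3 months. Scd1 fell from a mean of 41.9 FPKM to 18.9 and 18.4 FPKM. Plin2 averaged 73.75, 104.1 and 62.9 FPKM at 3, 19 and 24 months and was called lower at 24 against 19 months. The 6 melanocyte markers summed to 37.0 to 45.8, 31.6 to 32.7 and 28.8 to 34.4 FPKM, and Tyrp1, 1 of 5 tested, was called lower at both older ages (means of 2.70, 0.357 and 0.436 FPKM). Differentiated keratinocyte markers summed to 106 to 130, 83.9 to 103 and 88.7 to 184 FPKM, and adipocyte and Schwann cell markers each to 4.61 FPKM or below. The part of these cells in the results for Tgfb1, Tgfb2, Tgfb3, Itgb6, Ctgf, Fkbp1a, Pthlh, Acta2 and Col1a2 was not tested.

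**Figure D5:**
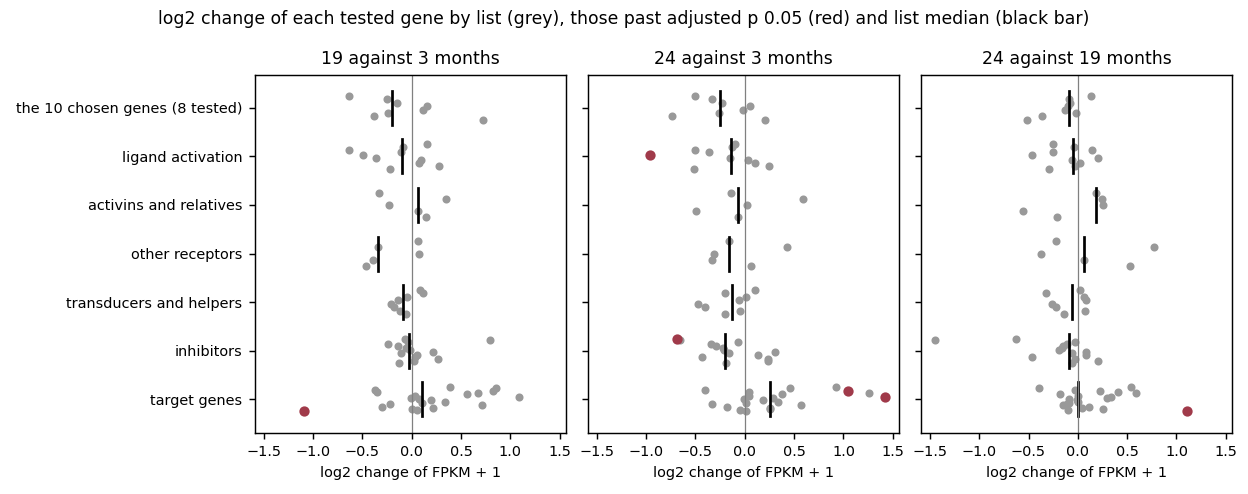
log2 change of FPKM + 1 (horizontal axis) of each tested gene by list and comparison. Grey points did not pass limma's adjusted threshold, red points did, and the black bar is the list median. The 10 chosen genes hold no red point, and the red points at 24 against 3 months are 1 gene of ligand activation, 1 inhibitor and 2 target genes.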

How the data were processed

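RNA of sorted cells was sequenced by the submitters, and the deposited table gives 1 FPKM value per gene and library. The submitters' processing notes name TopHat, Cuffdiff and the build NCBIM37. Their versions, settings and use of strand are unknown, so overlapping genes are uncertain. FPKM cannot enter a count test, and limma 3.58.1 (R 4.3.3, mean-dependent prior variance) was run two-sided on log2(FPKM + 1), fitting the 9 libraries together without further scaling. Gene types came from GENCODE M21 by Ensembl identifier, which matched 32916 of 37980 rows. Very short RNA rows have erratic FPKM, so protein-coding genes were the main set, and 36 rows listed at 0 at a whole age but at 5 FPKM or more at another were left out. This set, the members and the lists were chosen with earlier results of these data known, including that this set calls more genes than all rows. Named were all members, the pathway genes called, and the 3 genes most correlated with the called member or, with none called, with the member of smallest F test p. Errors on log2 changes are limma's standard errors. The script was tested on simulated data. Relative depth came from the commonest ratio between libraries among values under 0.06 FPKM. Alternatives changed the rows tested, pseudocount, filter, scaling, prior, ages fitted, replicate term and libraries.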

Additional observations from a re-analysis of the deposited data

How the results depend on the processing

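The count of members called by limma was 0 at each comparison and in the F test under every alternative that kept all 9 libraries or whole ages, and the fits without 1 library called 0 to 1 at 19 against 3 months (Tgfb2), 0 to 1 at 24 against 3 months (Tgfb3), 0 at 24 against 19 months and 0 to 1 in the F test. Counts over all genes, in the order 19 against 3, 24 against 3, 24 against 19 months and F test, were 180, 442, 107 and 523 as reported, 40, 29, 7 and 32 over all table rows, 27, 0, 0 and 0 over all rows but those listed at 0, and 53, 118, 0 and 59 with no filter on low values. Pathway genes called were 1, 4, 1 and 6 as reported. At 24 against 3 months, 24 against 19 months and in the F test they were 0, 0 and 1 over all rows, 0, 0 and 0 without those listed at 0, and 1, 0 and 1 with no filter. At 19 against 3 months they were 2 with median-shifted values, 2 with quantile-normalised values, 2 with a robust prior and 2 with only those ages fitted. Quantile normalisation called 59 genes at 24 against 19 months. Without 1 library the counts over all genes ran from 69 to 230, 136 to 456, 20 to 216 and 190 to 541, and those of pathway genes from 1 to 3, 1 to 6, 1 to 2 and 2 to 7.

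The replicate numbers of the labels are not said to pair libraries, and deviations from the age means of same-numbered libraries correlated between -0.197 and 0.187, so no pairing was assumed. With the replicate block, 158 genes and 2 pathway genes were called at 24 against 3 months and 2 pathway genes in the F test, and 0 members.

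Most directions that turned were those of changes near 0 on the log2 scale. The largest changes that turned were those of Acta2 and Fst at 24 against 19 months, 0.34 and 0.25 in the main fit. At 24 against 3 months Tgfbr2 became 0.037 with median-shifted and 0.032 with quantile-normalised values, and Ctgf became -0.084 with quantile-normalised values. At 24 against 19 months Fst became -0.0016 with the replicate block. Over the fits without 1 library, Tgfbr2 ran from -0.024 to 0.294 at 19 against 3 months and from -0.156 to 0.162 at 24 against 3 months, Smad3 from -0.353 to 0.028 at 19 against 3 and from -0.261 to 0.119 at 24 against 19 months, and Smad2 from -0.097 to 0.232 at 24 against 3 months. Tgfbr1 ran from -0.120 to 0.043, Smad7 from -0.261 to 0.183 and Acta2 from -0.028 to 0.573 at 24 against 19 months, Fkbp1a from -0.134 to 0.053 at 19 against 3 months, and Ctgf from -0.110 to 0.090 at 24 against 3 months. The causes were not tested. Absolute depth is unknown, which limits what can be said of Tgfb1 and Tmeff1.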
